A study of Mus musculus with 9 samples.

Results

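The genes described here are 35 mouse genes of the extracellular matrix that do not encode collagens: adhesive glycoproteins, proteoglycans, elastic fibre proteins and the enzymes that cross-link them. They were given as a list of gene symbols, all 35 matched a row among the 56305 genes of the count table, and all 35 passed the filter on low counts that left 15974 genes for testing. RNA was sequenced from whole kidney of mice in 3 groups of 3 libraries each. Sham mice were wild-type for Pfkfb3 and had the sham treatment. Injured wild-type mice were taken at day 14 after ischemia-reperfusion injury, in which both renal arteries were clamped for 30 min. Injured knockout mice had the same injury and day and lacked Pfkfb3 conditionally in proximal tubular cells; Pfkfb3 encodes an enzyme that makes an activator of glycolysis. Wild-type mice were littermates of the knockout mice. The sources used here do not give how the deletion was driven, the age or sex of the mice, or the day on which sham kidneys were taken, and no sham knockout group was analysed here. The study asked about the role of PFKFB3 in kidney fibrosis. Nothing states that replicates were different mice, and p-values therefore reflect only the variation among these libraries.

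In a scarring kidney, fibroblasts and pericytes between the tubules become matrix-producing cells. Collagen fibres form the bulk of the scar, but they are laid down on a scaffold of fibronectin, held in register by small leucine-rich proteoglycans, and hardened by lysyl oxidases, which oxidise lysine side chains of collagen and elastin so that they bond to each other. Fibrillin microfibrils carry elastin and store transforming growth factor beta (TGF-beta), and matricellular proteins such as periostin and tenascin-C adjust how cells hold on to the matrix.

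Each library held from 15626792 to 19987842 counts. The 7 kidney markers, among them uromodulin, nephrin and aquaporin-2, summed to 3419 to 10638 CPM (counts scaled to the size of the library) over the 9 libraries, while 4 fat cell markers summed to 0 to 0.687 CPM. Of 4 adrenal markers Cyp11b2 was at 0 in all 9 libraries, Cyp11b1 and Cyp21a1 had counts in 1 library each (0.0444 and 0.0860 CPM), and Star lay at 3.503 to 5.12 CPM. Mitochondrial genes took 8.46% to 11.3% of counts in sham, 6.08% to 7.20% in injured wild-type and 12.7% to 13.9% in knockout libraries; these ranges do not overlap, and their part in the matrix values was not tested. Pfkfb3 itself lay at 19.97, 20.1 and 21.9 CPM in sham, at 36.2, 34.4 and 25.2 CPM in injured wild-type and at 25.2, 19.7 and 17.3 CPM in injured knockout libraries, so the lowest injured wild-type and the highest knockout library nearly met (log2 difference -0.62, SE 0.17, adjusted p = 0.00773). Knockout libraries were not below sham: the groups overlapped, with replicate 1 of the knockout above every sham library (log2 difference 0.00509, SE 0.17, adjusted p = 0.988). Injured knockout replicate 1 stood apart from the other knockout libraries. Its 5 podocyte markers summed to 111 CPM, against 410 and 430.0 CPM in replicates 2 and 3, and its 6 endothelial markers to 161 CPM, against 401 and 431 CPM. Aqp2, the collecting duct water channel, was at 1433 CPM there and at 476 and 535 CPM in the others, and the 5 markers of injured tubules summed to 117 CPM against 20.4 and 19.3 CPM. This library was the lowest of its group for 26 of the 35 matrix genes. Such an order was not particular to it, as sham replicate 3 was lowest for 31 and injured wild-type replicate 2 for 27. In view of its marker levels, counts that rest on the knockout group, and calls that change, are also given without it.

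Nearly all of these genes rose after injury in wild-type kidneys, and nearly all were much lower in injured knockout kidneys, close to the sham level. With injury 31 of 35 rose and 0 fell by edgeR's quasi-likelihood test at a false discovery rate of 0.05, while 29.5% of all tested genes rose, 28.7% fell and 58.2% passed in either direction; 0 were lower at an unadjusted p under 0.05 and 0 fell by DESeq2, which called 30 up. The median log2 fold change was 2.18, against 0.03 over all tested genes. Of the 31, 29 rose at least 2-fold, 21 at least 4-fold, 11 at least 8-fold and 4 at least 16-fold. Between the injured groups 29 of 35 were lower in knockout and 0 higher, while of all tested genes 28.1% were lower, 27.8% higher and 55.9% either, with a median of -2.21 against -0.01; 0 were higher at an unadjusted p under 0.05 and 0 by DESeq2. Without injured knockout replicate 1 the test gave 28 lower and 1 higher. Scaled by library size alone, 33 of the 35 rose with injury and 32 were lower in knockout, but most calls over all genes then pointed the same way, 8903 of 10859 up with injury (4708 of 9297 with TMM scaling) and 9101 of 10957 down between the injured groups (4489 of 8933). Libraries did not overlap for 32 genes with injury (all higher; 34.5% of all tested genes were higher in this way) and for 29 genes between the injured groups (all lower; 32.1% of all tested genes). Both comparisons share the injured wild-type libraries, so they are not independent.

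**Figure D1:**
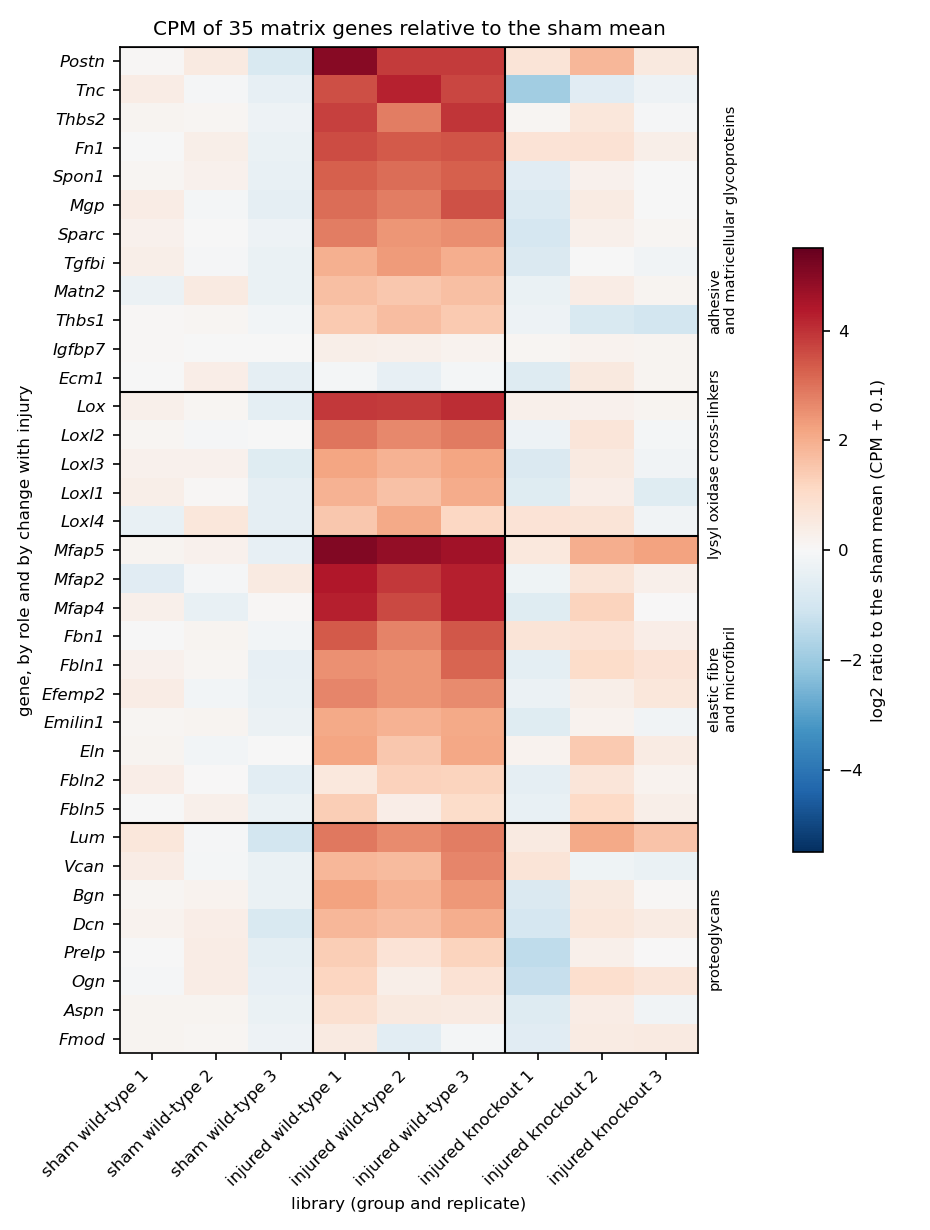
Each row is a gene, grouped by role and ordered by its change with injury, and each column a library; colour gives the log2 ratio of its CPM to the mean of the 3 sham libraries, after adding 0.1 CPM to both. The injured wild-type columns are red for most genes, with Igfbp7, Ecm1 and Fmod pale, while the knockout columns lie near the sham columns and replicate 1 is mostly the bluest of the 3.

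The 35 genes together took 0.220% ± 0.0160 of all sham counts, 0.847% ± 0.0904 of injured wild-type counts and 0.233% ± 0.0325 of injured knockout counts (SD, n = 3). One gene, Igfbp7, made up 62.6% of their summed CPM in sham, but 28.8% in injured wild-type and again 64.3% in knockout libraries. The other 34 summed to 1039, 1027 and 721 CPM in sham, to 4826, 4044 and 5058 CPM in injured wild-type and to 619, 1285 and 967 CPM in injured knockout libraries. Injured wild-type libraries were thus far above the rest without overlap, and the knockout libraries spanned a wider range than the sham libraries. The spread of single genes behaved likewise, with a median coefficient of variation over the 35 genes of 27.0% for the sham group, 15.6% for injured wild-type and 39.1% for injured knockout libraries.

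Fibroblast and pericyte markers moved in the same direction, while smooth muscle and myofibroblast markers were mixed. All 9 fibroblast and pericyte markers rose with injury, 8 of 9 (not Col14a1) were lower in the injured knockout than the injured wild-type group, and none was at 0 in any library. Their summed level ran from 126 to 173 CPM in sham, from 975 to 1266 CPM in injured wild-type and from 130 to 234 CPM in knockout libraries. Without Col1a1, which leads that sum in the injured wild-type group, the ranges were 115 to 155, 397 to 478 and 104 to 185 CPM. Pdgfrb, the receptor that marks pericytes and fibroblasts, rose 3.26-fold with injury and was 3.67-fold lower in knockout. Macrophage markers rose in 7 of 7 cases and were lower in knockout in 7 of 7, with sums of 132 to 178, 1458 to 1664 and 125 to 150 CPM. The 5 injured tubule markers all rose and all were lower in knockout, with sums of 20.3 to 32.6, 879.7 to 1375 and 19.3 to 117 CPM. Between knockout and sham none of the 5 passed the test or was called by DESeq2, but 2 were higher at an unadjusted p under 0.05. Proximal tubule markers went the other way, 6 of 6 down with injury and 6 of 6 higher in knockout, with sums of 13350 to 14893, 2479 to 3783 and 12142 to 13952 CPM. Smooth muscle markers did not follow: Acta2 and Des rose, Myh11 fell, and between the injured groups Myh11 and Cnn1 were higher and Des and Mylk lower in knockout. Without injured knockout replicate 1 the counts between the injured groups were still 8 of 9, 7 of 7, 5 of 5 and 6 of 6 for these 4 lists, and of the smooth muscle markers Mylk no longer passed. Of 6 endothelial markers 0 rose and 1 fell with injury, and 0 were called between the injured groups. Of 5 podocyte markers 0 were called with injury and 1 was lower in knockout. These counts of 0 also held at an unadjusted p under 0.05 and by DESeq2. Without injured knockout replicate 1, 1 endothelial and 3 podocyte markers were higher in knockout, and 1 podocyte marker was lower. The part of these cell types in the matrix values was not tested, and in whole tissue fewer cells of a type and less RNA per cell cannot be told apart.

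**Figure D2:**
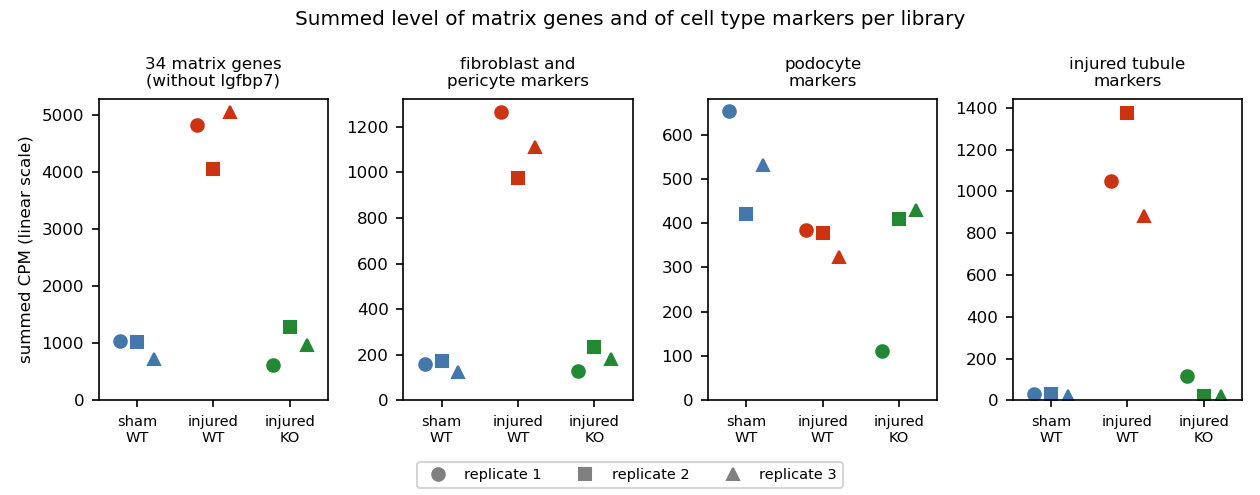
Summed CPM per library, on linear axes, of the 34 matrix genes without Igfbp7 and of 3 marker lists; each point is a library, and its shape gives the replicate. Matrix genes and fibroblast markers are high in the 3 injured wild-type libraries (4044 to 5058 CPM and 975 to 1266 CPM), and injured knockout replicate 1 is the lowest knockout library for matrix, fibroblast and podocyte sums and the highest for injured tubule markers.

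Levels were compared between genes per kilobase of exon (RPKM, from the union of a gene's annotated exons). Igfbp7, a secreted protein that binds insulin-like growth factors and sits around vessels, was the highest of the 35 in every group, with mean levels of 1284, 1549.9 and 1427 RPKM in sham, injured wild-type and injured knockout. The matrix Gla protein Mgp, an inhibitor of calcification, came second, with 97.4, 869 and 95.4 RPKM. Sparc, a collagen-binding matricellular protein, was at 38.9, 237 and 36.5 RPKM, and the proteoglycan Bgn at 27.1, 123 and 27.8 RPKM. The median of the 35 genes was 1.62 RPKM in sham, 11.1 RPKM in injured wild-type and 2.40 RPKM in injured knockout kidneys. At the lower end the periostin gene Postn and the proteoglycan Vcan were at 0.0831 and 0.0878 RPKM in sham, and Vcan was the lowest in injured wild-type at 0.412 RPKM.

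**Figure D3:**
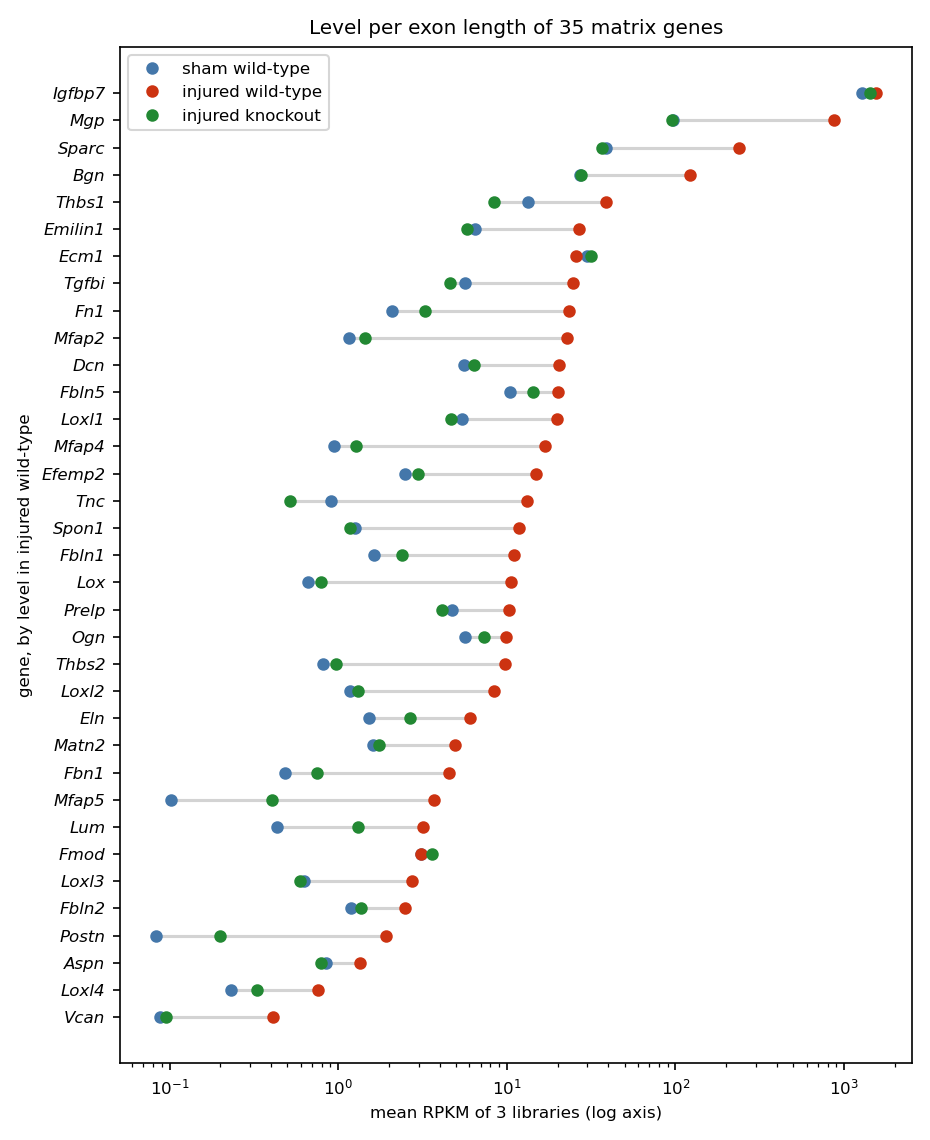
Mean RPKM of the 3 libraries per group for each gene, on a log axis, ordered by the level in injured wild-type kidneys; a line joins the lowest and highest group mean. Blue sham and green knockout points sit close together for most genes and red injured wild-type points to their right, except for Igfbp7, Ecm1 and Fmod, whose 3 points lie together.

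Promoter sequences are shown for 5 genes that cover the range of the response: the 3 with the largest rise among those whose promoter could be shown (Postn, Mfap2 and Tnc) and the 2 with the smallest change (Fmod and Ecm1). Each holds 250 bases before and 50 after the start of transcription, 5′ to 3′ on the gene's strand, from RefSeq on GRCm38.p6 (mm10), at the start nearest to the gene's annotated one. Capitals mark matches, on either strand, to the TATA box TATAAA, the CCAAT box CCAAT, the GC box GGGCGG, the AP-1 motif TGANTCA, the TEAD motif GGAATG or the NF-kB consensus motif, each counted regardless of overlap with another.
Postn (chr3:54360857-54361156, plus strand): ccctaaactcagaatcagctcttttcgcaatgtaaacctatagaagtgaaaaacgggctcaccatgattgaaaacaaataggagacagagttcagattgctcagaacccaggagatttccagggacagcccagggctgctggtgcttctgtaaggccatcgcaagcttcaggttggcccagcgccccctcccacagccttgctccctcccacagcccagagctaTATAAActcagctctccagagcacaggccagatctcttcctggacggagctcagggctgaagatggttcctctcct
Mfap2 (chr4:141010174-141010473, plus strand): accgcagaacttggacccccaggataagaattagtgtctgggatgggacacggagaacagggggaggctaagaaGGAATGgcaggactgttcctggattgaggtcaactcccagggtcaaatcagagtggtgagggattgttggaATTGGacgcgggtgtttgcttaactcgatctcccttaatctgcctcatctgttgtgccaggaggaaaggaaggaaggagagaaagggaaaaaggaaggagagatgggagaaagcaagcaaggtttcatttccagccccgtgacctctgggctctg
Tnc (chr4:64046966-64047265, minus strand): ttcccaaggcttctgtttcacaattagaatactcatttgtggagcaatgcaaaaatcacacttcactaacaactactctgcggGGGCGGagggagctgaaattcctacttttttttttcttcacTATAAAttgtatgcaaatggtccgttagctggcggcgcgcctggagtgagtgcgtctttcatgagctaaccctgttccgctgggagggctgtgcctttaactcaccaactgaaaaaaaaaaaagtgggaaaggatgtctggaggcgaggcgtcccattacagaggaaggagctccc
Fmod (chr1:134037004-134037303, plus strand): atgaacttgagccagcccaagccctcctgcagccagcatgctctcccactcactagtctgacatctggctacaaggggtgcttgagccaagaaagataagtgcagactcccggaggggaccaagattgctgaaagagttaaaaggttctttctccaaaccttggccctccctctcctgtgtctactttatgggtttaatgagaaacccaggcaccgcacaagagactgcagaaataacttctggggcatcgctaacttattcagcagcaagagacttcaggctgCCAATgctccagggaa
Ecm1 (chr3:95739520-95739819, minus strand): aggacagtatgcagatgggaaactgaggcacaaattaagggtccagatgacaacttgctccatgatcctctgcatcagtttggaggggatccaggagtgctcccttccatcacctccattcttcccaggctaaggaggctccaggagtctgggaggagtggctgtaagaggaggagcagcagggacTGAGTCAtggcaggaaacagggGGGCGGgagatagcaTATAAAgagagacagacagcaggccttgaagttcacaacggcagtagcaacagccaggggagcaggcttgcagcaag
The Postn promoter held a TATA box starting 26 bases before the start, and Ecm1, which passed neither test, held one at 27 bases before it. Ecm1 also held a GC box at -42 and an AP-1 motif at -64, the only AP-1 match among the 28 promoters of these genes. The Tnc promoter held TATAAA farther upstream, at -126, and a GC box at -167. The printed Mfap2 promoter had neither, but a CCAAT box at -105 and a TEAD motif at -176, while the Mfap2 promoter not printed held a GC box. Fmod had a CCAAT box at 35 bases after the start. Of the 35 genes, 21 had 28 promoters in the table. TATAAA was found in 25.0% of these 28 and in 13.6% of all 32851 promoters, the GC box in 57.1% and 35.7%, CCAAT in 32.1% and 37.4%, the AP-1 motif in 3.57% and 7.81%, the TEAD motif in 7.14% and 14.7%, and the NF-kB motif in 17.9% and 8.46%. The 4 genes with an NF-kB match were Fbln1, Loxl4, Mfap2 (in the promoter not printed) and Thbs2. A match describes these letters only and does not show that a factor binds.

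Adhesive and matricellular glycoproteins made up 12 of the genes, and 11 of them rose with injury while 10 were lower in the injured knockout than the injured wild-type group. Their median log2 fold changes were 2.88 and -2.77. Fn1 (ENSMUSG00000026193, chromosome 1, 71585520 to 71653200, mm10) encodes fibronectin, the first scaffold of a provisional matrix. Its level was 23.9, 30.2 and 18.9 CPM in the sham libraries, 295, 254 and 269.5 CPM in injured wild-type and 41.2, 42.0 and 30.8 CPM in injured knockout. No groups overlapped, and the knockout libraries sat just above sham. Fn1 rose 11.2-fold with injury (log2 3.49, SE 0.18, adjusted p = 1.99e-07) and was 7.19-fold lower in knockout (log2 -2.85, SE 0.17, adjusted p = 4.03e-07).

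Postn (ENSMUSG00000027750, chromosome 3, 54361109 to 54391037) encodes periostin, which binds collagen and integrins. It was nearly silent in sham, at 0.761, 1.05 and 0.357 CPM, and reached 26.3, 11.7 and 11.8 CPM in injured wild-type against 1.24, 2.86 and 1.10 CPM in injured knockout libraries. Injured wild-type replicate 1 stood above its other replicates, and all 3 were above every other library. The rise was 22.6-fold, on 38 sham counts (log2 4.50, SE 0.49, adjusted p = 1.30e-05), and the level was 9.61-fold lower in knockout (log2 -3.26, SE 0.45, adjusted p = 8.05e-05).

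Tnc (ENSMUSG00000028364, chromosome 4, 63959785 to 64047015) encodes tenascin-C, a glycoprotein of wounds and tissue repair. Tnc lay at 9.37, 6.69 and 5.17 CPM in sham, at 83.9, 133 and 90.8 CPM in injured wild-type and at 1.82, 4.52 and 5.77 CPM in injured knockout libraries. It showed the largest difference of the 35 between the injured groups, 25.3-fold lower in knockout (log2 -4.66, SE 0.34, adjusted p = 1.03e-06), after a 14.5-fold rise with injury (log2 3.86, SE 0.32, adjusted p = 2.03e-06). Of the 3 knockout libraries 2 were below every sham library, and knockout against sham was not called (log2 -0.80, SE 0.35, adjusted p = 0.133).

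Thbs2 encodes thrombospondin-2, which limits vessel growth and binds matrix proteases. Its libraries read 6.27, 6.19 and 4.64 CPM in sham, 77.7, 40.6 and 88.1 CPM in injured wild-type and 6.06, 8.96 and 5.43 CPM in injured knockout. Thbs2 rose 12.1-fold (log2 3.59, SE 0.29, adjusted p = 1.84e-06) and was 10.1-fold lower in knockout (log2 -3.34, SE 0.29, adjusted p = 2.92e-06). Its relative Thbs1, an activator of latent TGF-beta, was at 84.4, 87.4 and 72.7 CPM in sham, and read 219, 268 and 219 CPM in injured wild-type. In injured knockout libraries Thbs1 was at 66.4, 45.9 and 40.1 CPM, below all sham libraries. Thbs1 rose 2.89-fold with injury (adjusted p = 1.73e-05) and was 4.63-fold lower in knockout than in injured wild-type kidneys (adjusted p = 1.71e-06).

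Spon1, which encodes the matrix glycoprotein spondin-1, went from 13.1 ± 2.83 to 122 ± 10.6 CPM with injury and was at 12.3 ± 3.66 CPM in knockout (SD, n = 3). Mgp went from 116 ± 37.2 to 1031 ± 243 CPM and was at 113 ± 44.3 CPM in knockout kidneys (SD, n = 3), and Sparc went from 148 ± 25.9 to 899 ± 116 CPM against 138 ± 53.1 CPM (SD, n = 3). Their rises were 9.31-fold, 8.91-fold and 6.10-fold. Tgfbi, a TGF-beta-induced adhesion protein, rose 4.35-fold, and Matn2, a matrilin that bridges matrix filaments, rose 3.04-fold. These 5 genes were between 2.84-fold and 9.95-fold lower in the injured knockout than the injured wild-type group.

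The 2 glycoprotein genes that were not lower in knockout were Igfbp7 and Ecm1. Igfbp7 rose by only 1.21-fold, from 1599.8, 1531 and 1527 CPM in sham to 1963, 1878 and 1780.1 CPM in injured wild-type, with 1654, 1783 and 1739 CPM in knockout libraries (log2 0.27, SE 0.10, adjusted p = 0.0429). That call ended in 7 of 9 fits without 1 library (adjusted p up to 0.138), and Igfbp7 did not pass the test between the injured groups (log2 -0.12, SE 0.10, adjusted p = 0.357). Scaled by library size alone Igfbp7 was lower in knockout (log2 -0.70, adjusted p = 4.17e-05), as were most genes called on that scale. Ecm1 (ENSMUSG00000028108, chromosome 3, 95734147 to 95739569), a glycoprotein that binds basement membrane proteins, was at 74.0, 98.7 and 54.4 CPM in sham, at 69.6, 55.9 and 69.4 CPM in injured wild-type and at 46.2, 111 and 82.8 CPM in injured knockout. All 3 groups overlapped. Neither comparison was called (log2 -0.22, SE 0.28, adjusted p = 0.518 with injury; log2 0.30, SE 0.28, adjusted p = 0.380 between the injured groups), but without injured knockout replicate 1 Ecm1 was higher in knockout (log2 0.59, adjusted p = 0.0339).

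All 5 lysyl oxidases rose with injury and all 5 were lower in the injured knockout than the injured wild-type group, with medians of 2.13 and -2.21 on the log2 scale. Lox, the founding enzyme of the family, was at 3.92, 3.48 and 2.14 CPM in sham, at 49.1, 46.6 and 55.1 CPM in injured wild-type and at 3.94, 3.76 and 3.57 CPM in injured knockout. The 3 knockout libraries agreed to within a coefficient of variation of 4.92%, next to 39.1% for the median gene. They held 156 Lox counts together, so agreement this close may be accidental. Lox rose 15.7-fold (log2 3.98, SE 0.19, adjusted p = 1.71e-07) and was 13.4-fold lower in knockout (log2 -3.74, SE 0.19, adjusted p = 2.42e-07).

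Loxl2, which also acts on the type IV collagen of basement membranes, was at 6.79, 6.08 and 6.18 CPM in sham, at 49.9, 39.7 and 47.1 CPM in injured wild-type and at 5.18, 10.2 and 5.84 CPM in injured knockout. It rose 7.17-fold and was 6.44-fold lower in knockout (adjusted p = 1.35e-06 and 2.01e-06). Loxl3 went from 3.46, 3.43 and 1.78 CPM to 13.3, 11.3 and 13.4 CPM with injury and was at 1.61, 4.07 and 2.54 CPM in knockout. Its rise of 4.37-fold and its difference of 4.63-fold both passed the test (adjusted p = 0.000127 and 0.000119).

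Loxl1, the family member that works on elastin, was the most abundant lysyl oxidase per length in every group, with 5.45, 19.8 and 4.65 RPKM against 0.666, 10.5 and 0.787 RPKM for Lox. Loxl1 rose 3.62-fold (adjusted p = 0.000149) and was 4.26-fold lower in knockout (adjusted p = 7.50e-05). Loxl4, with 0.757 RPKM in injured wild-type kidneys, was the scarcest and moved the least, at 0.703, 1.55 and 0.654 CPM in sham, 2.89, 4.40 and 2.28 CPM in injured wild-type and 1.68, 1.66 and 0.824 CPM in injured knockout. It rose 3.26-fold (log2 1.70, SE 0.42, adjusted p = 0.00481) and was 2.30-fold lower in knockout (log2 -1.20, SE 0.42, adjusted p = 0.0286). The latter call ended without injured wild-type replicate 2 (log2 -0.90, adjusted p = 0.127) or without injured knockout replicate 3 (log2 -0.92, adjusted p = 0.111).

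The elastic fibre and microfibril genes held 3 of the 4 rises of at least 16-fold, those of Mfap5, Mfap2 and Mfap4. All 10 rose with injury, with a median of 2.68 on the log2 scale, and 9 were lower in the injured knockout than the injured wild-type group. Mfap5 (ENSMUSG00000030116, chromosome 6, 122505845 to 122529290) encodes a microfibril-associated glycoprotein that binds fibrillin. It had 19 counts over the 3 sham libraries, at 0.410, 0.442 and 0.238 CPM, and reached 15.8, 12.96 and 11.2 CPM in injured wild-type. In injured knockout libraries Mfap5 was at 0.584, 1.73 and 2.06 CPM, between the other groups without touching either. The rise was 35.8-fold, the largest of the 35 (log2 5.16, SE 0.41, adjusted p = 1.45e-06), and the level was 9.06-fold lower in knockout (log2 -3.18, SE 0.34, adjusted p = 1.38e-05).

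Mfap2, a relative of Mfap5 with the same partner, was at 0.878, 1.33 and 2.02 CPM in sham, at 31.7, 22.3 and 29.1 CPM in injured wild-type and at 1.17, 2.33 and 1.72 CPM in injured knockout. It rose 19.6-fold (log2 4.29, SE 0.29, adjusted p = 5.93e-07) and was 15.9-fold lower in knockout (log2 -3.99, SE 0.29, adjusted p = 9.75e-07). Mfap4, a fibrinogen-related microfibril protein, went from 2.23, 1.33 and 1.90 CPM to 37.0, 23.5 and 37.3 CPM with injury, with 1.09, 4.37 and 1.85 CPM in knockout. Sham and knockout libraries overlapped for both genes. Mfap4 rose 17.9-fold and was 13.4-fold lower in knockout (log2 -3.75, SE 0.38, adjusted p = 8.60e-06), a log2 difference that became -4.44 without injured knockout replicate 2.

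Fibrillin-1, the core of the microfibril encoded by Fbn1, rose 9.38-fold from 5.87 ± 0.599 to 55.2 ± 13.6 CPM and was at 9.12 ± 1.45 CPM in knockout (SD, n = 3). Elastin itself, encoded by Eln, rose less, 3.93-fold from 12.4 ± 1.29 to 48.8 ± 12.2 CPM, and was 2.25-fold lower in knockout at 21.7 ± 10.6 CPM (SD, n = 3; adjusted p = 0.00460). Among the proteins that bridge the fibre, Fbln1 rose 6.82-fold, Efemp2, a fibulin needed for elastin cross-linking, 6.01-fold, and Emilin1, at the interface of elastin and microfibrils, 4.12-fold. These 3 were 4.63-fold, 5.01-fold and 4.65-fold lower in injured knockout kidneys.

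Fbln2 and Fbln5 changed the least in this role. Fbln2 rose 2.10-fold (adjusted p = 0.00999) and was 1.85-fold lower in knockout (adjusted p = 0.0268); in the latter comparison its libraries overlapped, and the call ended without injured wild-type replicate 2 or 3 or injured knockout replicate 1 or 3 (adjusted p = 0.0682 to 0.0829). Fbln5, which organises elastin on microfibrils, was at 71.6, 88.1 and 56.4 CPM in sham, at 182, 91.6 and 143 CPM in injured wild-type and at 54.2, 152 and 90.3 CPM in injured knockout. Injured wild-type replicate 2 nearly met the highest sham library, and the knockout libraries covered most of both ranges. Fbln5 rose 1.93-fold (log2 0.95, SE 0.33, adjusted p = 0.0292), a call that ended without sham or injured wild-type replicate 1 or 3 (adjusted p = 0.0638 to 0.117) and by DESeq2 (adjusted p = 0.0561). Between the injured groups it did not pass the test (log2 -0.49, SE 0.33, adjusted p = 0.231), but did so without injured knockout replicate 2 (log2 -0.93, adjusted p = 0.0247). Fbln5 also passed there without a low-count filter (log2 -0.50, adjusted p = 0.00737) and when scaled by library size alone (log2 -1.08, adjusted p = 0.0144).

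Proteoglycans split into genes that rose and genes that were not called in the main fit to all 9 libraries. Of 8 genes 5 rose with injury, 3 did not pass the test, and the median was 1.497 on the log2 scale. The same 5 genes, Bgn, Dcn, Lum, Prelp and Vcan, were lower in the injured knockout than the injured wild-type group. Bgn (ENSMUSG00000031375, chromosome X, 73483602 to 73495933) encodes biglycan, a small leucine-rich proteoglycan that binds collagen and, when freed, immune receptors. It was at 177, 191 and 128 CPM in sham, at 762, 629.8 and 855 CPM in injured wild-type and at 96.7, 239 and 172 CPM in injured knockout. Bgn rose 4.52-fold (log2 2.18, SE 0.28, adjusted p = 4.55e-05) and was 4.43-fold lower in knockout (log2 -2.15, SE 0.28, adjusted p = 5.33e-05).

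Lum (ENSMUSG00000036446, chromosome 10, 97565128 to 97572703) encodes lumican, which sets collagen fibril spacing. The sham libraries read 1.70, 0.996 and 0.476 CPM, the injured wild-type libraries 8.50, 6.88 and 7.997 CPM and the injured knockout libraries 1.53, 4.74 and 3.297 CPM. Lum rose 7.33-fold (log2 2.87, SE 0.43, adjusted p = 0.000163) and was 2.44-fold lower in knockout (log2 -1.29, SE 0.39, adjusted p = 0.0155). Vcan, the large hyaluronan-binding versican, was at 1.70, 1.162 and 0.951 CPM in sham, 4.73, 4.48 and 8.64 CPM in injured wild-type and 2.12, 1.05 and 0.962 CPM in injured knockout. It rose 4.67-fold and was 4.31-fold lower in knockout (adjusted p = 0.000443 and 0.000735).

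Decorin (Dcn), the relative of biglycan that also binds TGF-beta, rose 3.63-fold from 32.7 ± 12.8 to 119 ± 13.2 CPM and was at 37.5 ± 18.1 CPM in knockout (SD, n = 3). Prelp, which anchors basement membranes to collagen, rose 2.19-fold (adjusted p = 0.0146), and that call ended without sham replicate 3 (log2 0.92, adjusted p = 0.0638). Dcn and Prelp were 3.17-fold and 2.53-fold lower in knockout (adjusted p = 0.00209 and 0.00676). Fmod (ENSMUSG00000041559, chromosome 1, 134037254 to 134048277), fibromodulin of collagen-rich tissue, was at 11.5, 11.0 and 8.32 CPM in sham, at 14.4, 6.79 and 9.55 CPM in injured wild-type and at 6.72, 14.2 and 14.7 CPM in injured knockout. Its groups overlapped throughout, with a log2 difference of -0.01 with injury (SE 0.31, adjusted p = 0.989). Ogn and Aspn, leucine-rich relatives in 1 gene cluster on chromosome 13, had log2 differences of 0.80 and 0.67 with injury (SE 0.43 and 0.32, adjusted p = 0.132 and 0.0907). Ogn passed the test with injury without injured knockout replicate 1 (log2 0.79, adjusted p = 0.0113). It also passed in a fit to only the groups compared (log2 0.80, adjusted p = 0.0158) and without a low-count filter (log2 0.79, adjusted p = 0.00068). Scaled by library size alone, Ogn and Aspn both passed with injury (log2 1.35 and 1.22, adjusted p = 0.0179 and 0.00525). Aspn libraries did not overlap between the injured groups, where the difference was -0.78 (SE 0.33, adjusted p = 0.0630), and passed without injured knockout replicate 2 (log2 -1.13, adjusted p = 0.0187). Aspn also passed there when scaled by library size alone (log2 -1.36, adjusted p = 0.00321). For Ogn the knockout libraries ran from 5.91 CPM in replicate 1 to 27.8 CPM in replicate 2, wider than any difference between group means.

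**Figure D4:**
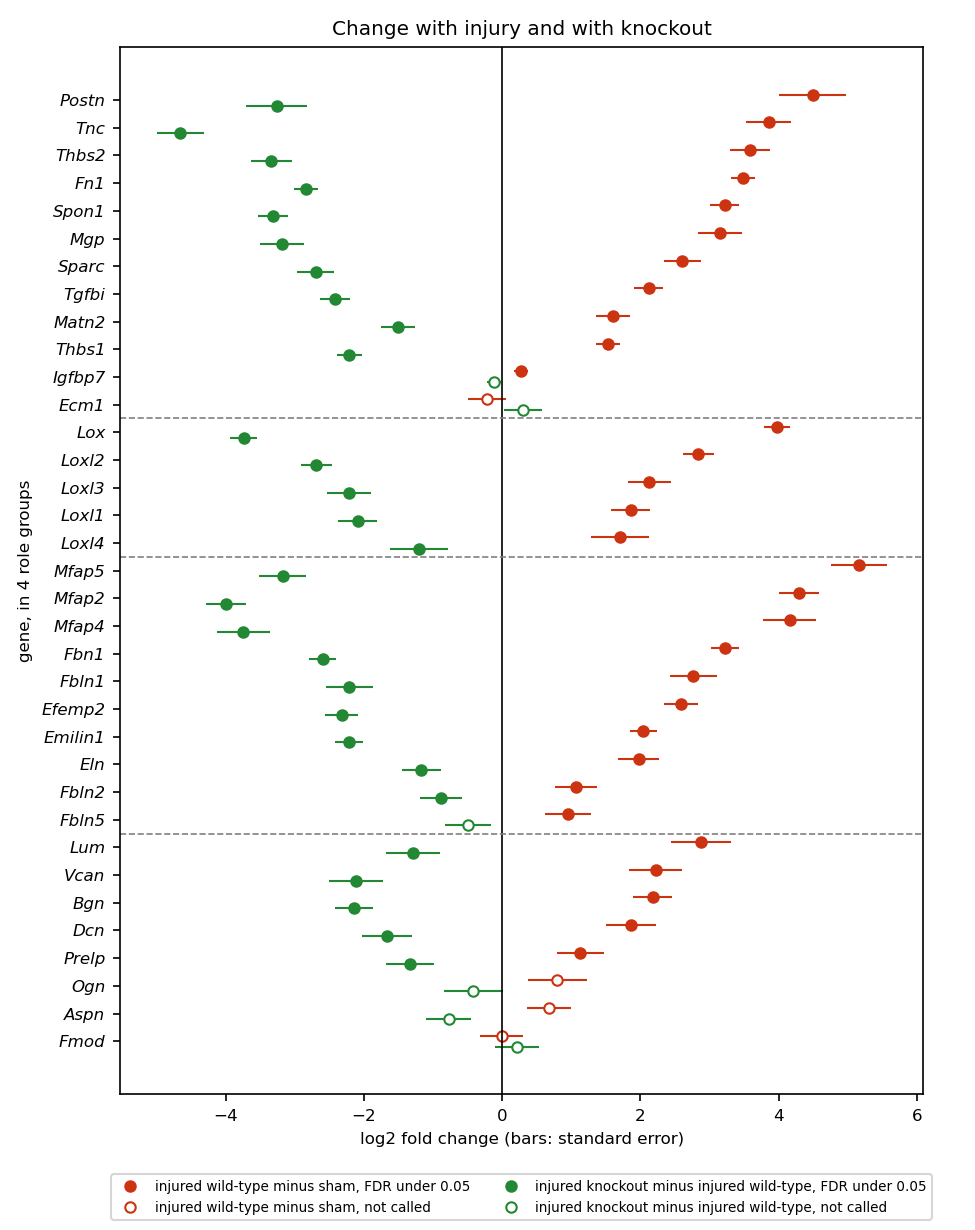
Log2 fold change of each gene with its standard error, with injury in red (injured wild-type minus sham) and between the injured groups in green (injured knockout minus injured wild-type); filled points passed the test at a false discovery rate of 0.05, and dashed lines part the 4 roles. Red points reach 5.16 for Mfap5 and green points -4.66 for Tnc, while Igfbp7, Ecm1 and Fmod stay near 0.

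Injured knockout kidneys were near the sham level for most of these genes. Calls against sham, in both directions together, were not more frequent than over all tested genes. Between injured knockout and sham 3 of 35 were higher (8.13% of all tested genes were higher) and 1 was lower (9.48% of all tested genes); in either direction 4 passed, while 17.6% of all tested genes did, and the median was 0.18 against 0.01. The higher genes were Mfap5 (3.95-fold; log2 1.98, SE 0.47, adjusted p = 0.0176), Lum (3.001-fold; log2 1.59, SE 0.45, adjusted p = 0.0345) and Fn1 (1.56-fold; log2 0.64, SE 0.17, adjusted p = 0.0260). The lower gene was Thbs1 (1.60-fold; log2 -0.68, SE 0.17, adjusted p = 0.0223). Knockout libraries were all above sham for 6 genes (18.4% of all tested genes), namely Fn1, Postn, Igfbp7, Fbn1, Eln and Mfap5, and all below for Thbs1 (17.8% of all tested genes). Of 5 lysyl oxidases 0 were called by edgeR or DESeq2, and 0 had an unadjusted p under 0.05. Without injured knockout replicate 1 the median log2 difference from sham was 0.33 for the 35 genes (0.18 with all libraries). It was 0.67 for the elastic fibre and microfibril genes (0.44 with all libraries) and 0.0055 over all tested genes.

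These 4 calls were fragile. The number of higher genes was 0 without sham replicate 3 or injured knockout replicate 2, 1 without sham replicate 2 or injured knockout replicate 3, and 2 to 4 without another library. Thbs1 lost its call without sham replicate 1 or 2 or injured knockout replicate 2 or 3 (adjusted p = 0.0508 to 0.0901). Without injured knockout replicate 1, the library with few glomerular transcripts, 4 genes were higher: Mfap5 (log2 2.36, adjusted p = 0.00582), Lum (log2 1.92, adjusted p = 0.0113), Eln (log2 1.04, adjusted p = 0.0243) and Fbln1 (log2 0.90, adjusted p = 0.0349). Thbs1 was then still lower (log2 -0.92, adjusted p = 0.00582), and Fn1 no longer passed (log2 0.58, adjusted p = 0.0537). Beside these genes, Col1a1 was 2.25-fold higher in injured knockout than in sham kidneys (log2 1.17, adjusted p = 0.0114). Of 6 smooth muscle and myofibroblast markers Acta2, Myh11 and Cnn1 were higher and Mylk lower. Without injured knockout replicate 1 the fibroblast markers Col14a1 and Gli1 were also higher, and Mylk no longer passed.

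**Figure D5:**
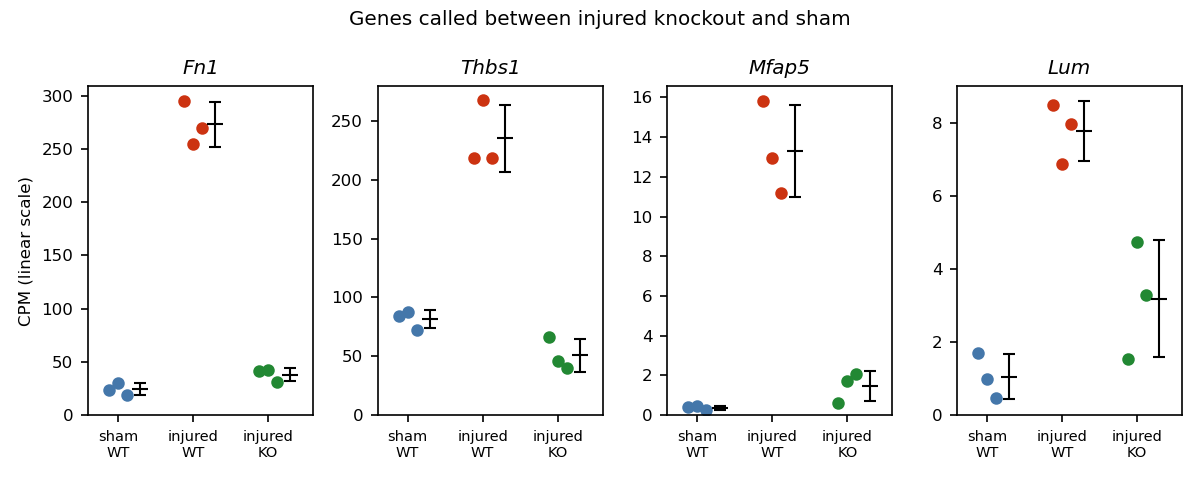
CPM per library, on linear axes, of the 4 genes called between injured knockout and sham kidneys; coloured points are libraries in replicate order, and the black bar gives the mean and SD of 3 libraries. Knockout points of Fn1 and Mfap5 lie just above sham, those of Thbs1 below, and for Lum replicate 1 of the knockout, at 1.53 CPM, lies within the sham range.

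Other genes of the same roles, taken from lists of 72 matrix genes outside the 35, moved less uniformly. Of the 56 that were tested, 29 rose and 9 fell with injury, with a median of 0.86, and 31 were lower and 6 higher in the injured knockout than the injured wild-type group, with a median of -0.78. Over all tested genes 29.5% rose and 28.7% fell with injury, and 28.1% were lower and 27.8% higher between the injured groups. Without injured knockout replicate 1, 30 of 57 were lower and 7 higher, and Tgm1 no longer passed. Among cross-linkers 5 of 9 rose with injury: Bmp1, the protease that activates pro-lysyl oxidase, rose 6.04-fold, the peroxidase Pxdn, which cross-links type IV collagen, 3.94-fold, and Plod1, Plod3 and Tgm2 by 0.46 to 0.66 on the log2 scale. Tgm1, a transglutaminase of epithelia, fell 2.97-fold. Between the injured groups 7 of the 9 were lower and only Tgm1 was higher, and against sham the lysyl hydroxylase Plod2 (log2 -0.51) and the clotting transglutaminase F13a1 (log2 -2.50, on 13 knockout counts) were lower in knockout.

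Of 28 other glycoproteins 12 rose with injury and 3 fell, Igfbp3, Igfbp4 and Igfbp5. Spp1, the osteopontin gene, rose 28.5-fold from 353 ± 34.1 to 10064 ± 908 CPM and was at 658 ± 334 CPM in knockout (SD, n = 3), and the matricellular Ccn4 rose 9.39-fold. In the elastic fibre list 7 of 9 rose and 1, Mmrn2, fell; the hemicentin Hmcn1 rose 13.5-fold, on 28 sham counts, and Fbln7 4.80-fold. Of 10 other proteoglycans 5 rose and 4 fell, Omd, Hapln1, Esm1 and Podn. The heparan sulfate proteoglycan Agrn rose 3.11-fold from 136 ± 14.6 to 422 ± 38.0 CPM (SD, n = 3) and Podnl1 7.58-fold, on 25 sham counts. Agrn, Podnl1, Hmcn1, Fbln7, Bmp1, Pxdn, Spp1 and Ccn4 were all lower in the injured knockout than the injured wild-type group, by 2.54-fold to 15.3-fold. Against sham 2 of the 56 were higher in injured knockout kidneys, Spp1 and the procollagen protease enhancer Pcolce, and 5 lower, Plod2, F13a1, Emilin2, Mmrn2 and Esm1, while 8.13% of all tested genes were higher and 9.48% lower. Without injured knockout replicate 1 the same 5 were lower and Spp1 no longer passed, while Pcolce, Dpt, Igfbp6, Sparcl1 and Adamtsl2 were higher.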

How the data were processed

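Counts per gene were taken as deposited by the authors, not normalised, for 9 libraries of whole mouse kidney. The NEBNext Ultra RNA kit was used for the libraries, per the labels' protocols. Build mm10 and DESeq2 1.16.1 are named without a role, per the submitters' processing notes; no source used here names the aligner, counting tool or strand setting. Of the 35 genes 14 share exon positions with an opposite-strand gene and 2, Ecm1 and Loxl2, with a microRNA on their own strand, so such reads may be shared.

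Symbols and exon lengths came from GENCODE M21 of the same build, which matched 55227 of 56305 identifiers. edgeR 4.0.16 in R 4.3.3 was used: 15974 genes passed filterByExpr, TMM gave the scaling, and the quasi-likelihood fit had the group as its term and all 9 libraries. Tests were 2-sided and Benjamini-Hochberg adjusted over the 15974 genes, with a threshold of 0.05; folds are those of the model, and standard errors come from its F statistic. CPM use TMM library sizes. The script was tested on simulated data. 0 sample columns were left unmapped.

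Values in every library are given, in each role, for the 3 called genes with the largest and the gene with the smallest change with injury, and for genes called between injured knockout and sham; of each other matrix list the 2 genes with the smallest p are named. Further genes were named after their values were seen. The 35 genes, the lists and the tests were chosen with earlier results of these data known. Alternatives were DESeq2 size factors, plain library sizes, DESeq2 1.42.0 with its Wald test, 2 low-count filters, a fit to the groups compared, a replicate block, a threshold of 0.01 and leaving out each library.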

Additional observations from a re-analysis of the deposited data

How the results depend on the processing

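Of recomputed values of single genes, 563 of 595 with injury and 575 of 595 between the injured groups kept their direction and their side of the threshold. Against sham 138 of 170 did so, but these covered only genes called under some setting or with libraries that did not overlap. That share is therefore not comparable with the others. With injury 28 to 33 genes rose and 0 fell under any alternative, and between the injured groups 26 to 32 were lower. Leaving out a library gave 28 to 31 rises with injury, 27 to 31 lower and 0 to 1 higher genes between the injured groups. Between injured knockout and sham, leaving out a library gave 0 to 4 higher and 0 to 1 lower genes, a threshold of 0.01 gave 0 and 0, DESeq2 gave 5 higher, and no low-count filter gave 6 higher and 2 lower; the cause was not tested. Chosen after seeing the data, counts by list were repeated without injured knockout replicate 1. Higher genes between the injured groups then numbered 1 glycoprotein (0 with all libraries), 4 other glycoproteins (2), 0 other cross-linkers (1), 1 endothelial marker (0) and 3 podocyte markers (0), and 1 smooth muscle marker was lower (2). Against sham, higher genes numbered 0 glycoproteins (1), 3 elastic fibre genes (1), 5 other matrix genes (2), among them 4 other glycoproteins (2) and 1 other elastic fibre gene (0), and 3 fibroblast markers (1); 0 smooth muscle markers were lower (1).

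Scaling by library size alone shifted the median over tested genes from 0.03 to 0.57 with injury and from -0.01 to -0.59 between the injured groups. On that scale 8903 of 10859 calls with injury were up, against 4708 of 9297, and 9101 of 10957 calls between the injured groups were down, against 4489 of 8933. Ecm1 and Fmod then turned to 0.33 and 0.54 with injury and to -0.29 and -0.36 between the injured groups, without a call. Fmod also turned to 0.0185 with injury under a mean CPM of at least 1. Leaving out a library moved Ecm1 from -0.42 to 0.0316 and Fmod from -0.33 to 0.21 with injury, and Fmod from -0.00351 to 0.54 and Ogn from -0.79 to 0.0140 between the injured groups.

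Deviations from the group means correlated between same-numbered libraries at -0.119 to 0.0630, which gave no sign that the numbers pair the samples. With 3 libraries per group this cannot exclude a pairing. The replicate block gave 30 rises with injury, 29 lower genes between the injured groups, and 2 higher and 1 lower against sham; it ended the calls of Igfbp7 with injury (0.27, adjusted p = 0.0715) and of Lum against sham (1.59, adjusted p = 0.0669). Genes at about 1 CPM or less in sham (Postn, Mfap5, Loxl4 and Lum) rest on 19 to 55 counts there.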
